A study of Homo sapiens with 32 samples.

Results

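These are the peaks of N6-methyladenosine (m6A) that fell in the longest human protein-coding genes. m6A is a methyl mark on adenosines of RNA, and it was mapped by antibody pulldown of RNA fragments and sequencing (MeRIP-seq). A peak was included if its summit lay inside the RefSeq span of a protein-coding gene longer than 500 kb. Of 20050 protein-coding genes, 315 were that long, and 200 of them held at least 1 peak. They carried 6961 of the 180114 peaks in the 4 lists, which merged to 2829 of 66409 loci (stretches where peaks of any list share at least 1 bp on the same strand). The RNA was the chromatin-bound fraction of A375, an established human melanoma line, depleted of ribosomal RNA. Of the series' 32 samples, the 4 immunoprecipitated libraries used here form 2 groups, 2 libraries with a control short hairpin RNA (shControl, genotype labelled WT) and 2 with a hairpin against METTL3 (shMETTL3, genotype labelled METTL3 knockdown). Both groups share the cell line, the RNA fraction and the same m6A antibody kit, and nothing in the labels says whether the hairpin cells were 1 clone or several, or whether replicates were separate cultures. P-values therefore measure the spread between these libraries, which may be technical.

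Most m6A is written on nascent RNA by a complex in which METTL3 is the enzyme and METTL14 its RNA-binding partner, and in mature mRNA the mark is best known near stop codons and in long exons. RNA bound to chromatin still holds introns, and in genes of this size introns make up nearly the whole span. Polymerase needs many hours to cross such a gene. Many of these genes encode adhesion molecules, axon guidance receptors and channels of neurons, and several lie at common fragile sites, where chromosomes break under replication stress.

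A small set of loci could be tied to DNA sequence, those at an annotated transcription start, because RefSeq gives the bases around each start (GRCh38.p14; 263 of the 315 genes matched). Loci that overlapped the first 50 transcribed bases numbered 43, and those of 2 genes were in both lists of 1 group and neither list of the other. NRXN3, a presynaptic adhesion molecule, had a start locus in the knockdown lists only, at an internal start 1109 kb into its span on the plus strand of chromosome 14. ANK3, the ankyrin that anchors channels at the axon initial segment, had one in the control lists only, at an internal start 593 kb into its span on the minus strand of chromosome 10. NALF1, an auxiliary factor of the sodium leak channel, had a locus in all 4 lists over its outermost start on chromosome 13. The windows of 250 bases before to 50 after these starts are shown 5′ to 3′ on the transcribed strand. Capitals mark GGAC, the core of the motif that METTL3 complexes prefer, wherever it occurs on that strand.
NRXN3, chr14:79279130-79279429, plus strand: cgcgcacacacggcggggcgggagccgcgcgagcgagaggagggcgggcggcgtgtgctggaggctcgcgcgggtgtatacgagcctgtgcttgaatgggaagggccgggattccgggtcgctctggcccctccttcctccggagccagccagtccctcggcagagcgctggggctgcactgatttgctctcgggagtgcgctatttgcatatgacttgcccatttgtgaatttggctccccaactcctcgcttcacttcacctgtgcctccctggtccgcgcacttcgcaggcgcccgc
ANK3, chr10:60140691-60140990, minus strand: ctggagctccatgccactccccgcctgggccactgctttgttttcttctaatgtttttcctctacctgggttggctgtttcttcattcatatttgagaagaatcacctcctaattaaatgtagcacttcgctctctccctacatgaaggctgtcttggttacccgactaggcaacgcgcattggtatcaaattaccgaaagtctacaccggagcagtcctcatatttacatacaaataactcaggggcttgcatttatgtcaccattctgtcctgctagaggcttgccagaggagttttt
NALF1, chr13:107867447-107867746, minus strand: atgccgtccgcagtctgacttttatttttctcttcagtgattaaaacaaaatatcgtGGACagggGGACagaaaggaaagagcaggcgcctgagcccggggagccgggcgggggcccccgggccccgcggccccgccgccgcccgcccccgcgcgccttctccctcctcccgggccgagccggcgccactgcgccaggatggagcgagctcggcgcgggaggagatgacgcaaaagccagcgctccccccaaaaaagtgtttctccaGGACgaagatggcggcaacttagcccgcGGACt

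The NALF1 window holds 4 GGAC, 2 of them among the first 50 transcribed bases, and the windows of NRXN3 and ANK3 hold 0. Of the 43 start loci, 8 had GGAC among the first 50 transcribed bases (18.6%), against 18.9% of the 35097 RefSeq start windows and 14.4% of the 616 starts of very long genes. The longer GGACT was there in 2 (4.65%), against 4.90% of all windows. The first transcribed base was A at 27 of the 43 starts (62.8%), against 44.4% of all starts and 54.1% of the starts of very long genes. These letters describe the windows and do not show a methylated base. A stretch of 30 transcribed bases around the motif is shown for the genes with GGAC near the start, again with the motif in capitals, since these are the start loci with the motif near the start. Their summits can lie elsewhere in the locus. The EPHA6 stretch (chr3:96814597-96814626) lies outside its locus, which begins at 96814636.
DCC: gcacaccgctggcGGACaccccagtaacaa
DNM3: cggcgggctccgacgtctgcgccaGGACct
EPHA6: cctcgcgcaagcgGGACactgtggtggatg
ERC1: cttcttcaagattGGACagctggGGACctt
NALF1: aagtgtttctccaGGACgaagatggcggca
PTPRD: gaaatttcagatcGGACagactcgctgcgg
TENM1: tgcttgcattaaaGGACttcctcatccttt
WDPCP: gataagttgGGACgaccGGACagcttctca

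All 8 of these loci were in all 4 lists. At the start of DCC, the netrin receptor of growing axons, the fold enrichments that the authors deposited were 7.60 and 5.61 with the control hairpin and 9.004 and 7.61 after knockdown. The start locus of TENM1, a teneurin of synapses, had folds of 3.06 and 2.57 in control and 3.93 and 3.36 in knockdown. DCC and TENM1 had fewer peaks elsewhere in the gene after knockdown, as given further on. The NALF1 start locus had folds of 5.09 and 7.18 in control and 8.12 and 7.72 in knockdown, but it was wide, and its summit lay 1627 bases from the start and so not at the GGAC shown. ANK3 had folds of 5.36 and 4.81 in control libraries, and NRXN3 had 4.37 and 4.34 in knockdown libraries. In all, 32 of the 43 start loci (74.4%) were in all 4 lists, against 28.4% of the other loci of these genes that lay on the gene's strand. Over every gene with a RefSeq start, 1210 of 2247 start loci (53.8%) were in all 4 lists.

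METTL3 itself had 5 peaks in every library, and peak lists do not measure how much RNA it made. A peak list cannot tell less methylation of a transcript from less of the transcript, or from fewer cells that make it. Of 7 melanocyte markers, MITF alone had peaks (5 and 8 in control, 7 and 9 in knockdown), while PMEL, MLANA, TYR, DCT, TYRP1 and SOX10 had 0. All 6 markers of dedifferentiated melanoma had peaks, 72 and 74 in all in control and 45 and 41 in knockdown. The lower sum came from TNC (35 and 34 against 11 and 10) and NT5E (9 and 11 against 3 and 3), whereas EGFR had 19 and 18 against 22 and 21, and AXL, NGFR and SOX9 had at most 6 in any library. The part of these genes in the results below was not tested. Keratinocyte, fibroblast and leukocyte markers summed to at most 1 peak in any library for each list, and the 4 neuron markers to 7 to 11, of which SYT1 gave 4 to 9.

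The number of peaks in very long genes did not separate the groups. Control libraries held 1685 and 1791 such peaks and knockdown libraries 1798 and 1687. The groups overlapped, with means of 1738 ± 74.95 and 1742.5 ± 78.5 (SD, n = 2 each; exact two-sided permutation test, p = 0.667). With lists of equal length the means were 1583.5 and 1710. As a share of each list the peaks came to 3.72% and 3.76% in control (95% Wilson intervals 3.55% to 3.89% and 3.59% to 3.93%) and to 4.08% and 3.93% in knockdown (3.90% to 4.26% and 3.75% to 4.11%). Both knockdown libraries were above both control libraries, which gives p = 0.33, the smallest value an exact test of 2 against 2 libraries allows. The difference between group means of the share depended on the cutoff. With only peaks of a fold of at least 4 it went from 0.266 to -0.0021 percentage points. The intervals cover counting error only. Peak lists carry no read depth, so the depth of each library is unknown.

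In height and width these peaks resembled the rest of their lists. Median folds were 3.79 and 3.69 in control and 3.75 and 3.88 in knockdown, and the median peak of these genes ranked at percentile 48.5, 51.5, 45.1 and 48.6 of its own list. Median widths were 255 to 265 bp. Of the 2783 loci in genes with a known strand, 2637 (94.8%) lay on the strand of the gene. The strand came from RefSeq for 168 genes with a peak and was inferred from the peaks themselves for 21, and 11 had none. In the genes with a RefSeq strand the share was 94.2% (2269 of 2409 loci). A gene span is not a single transcript: 442 of the 2829 loci also lay inside another gene, and 2387 (84.4%) lay in the 1 gene only. The other gene could be on either strand, here and in the counts for single genes below. Exons and UTRs are not annotated here, so position is given as distance from the 5′ end of the span.

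The loci were spread unevenly over the genes. The 10 genes with most loci held 631 of them (22.2%), 54 genes had at least 20 loci, and the median gene with any had 9. In genes with at least 10 loci, neighbours on the gene's strand lay a median of 6.97 kb apart. KIRREL3, an immunoglobulin-family adhesion molecule of neurons and kidney filter cells, was the densest, with 93 loci or 16.03 per 100 kb. ADARB2, a brain-enriched relative of the RNA editing enzymes, had 75 loci (13.4 per 100 kb), and NALF1 had 81 (11.5 per 100 kb). At the threshold of length, the shortest members, AFF2, PPP2R2B and PPFIA2 (500.05 to 501.38 kb), had no peak, and of the genes just below it ITPR2 had 4 to 6 peaks per list, CPQ 0 and DIAPH3 7 to 12.

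**Figure D1:**
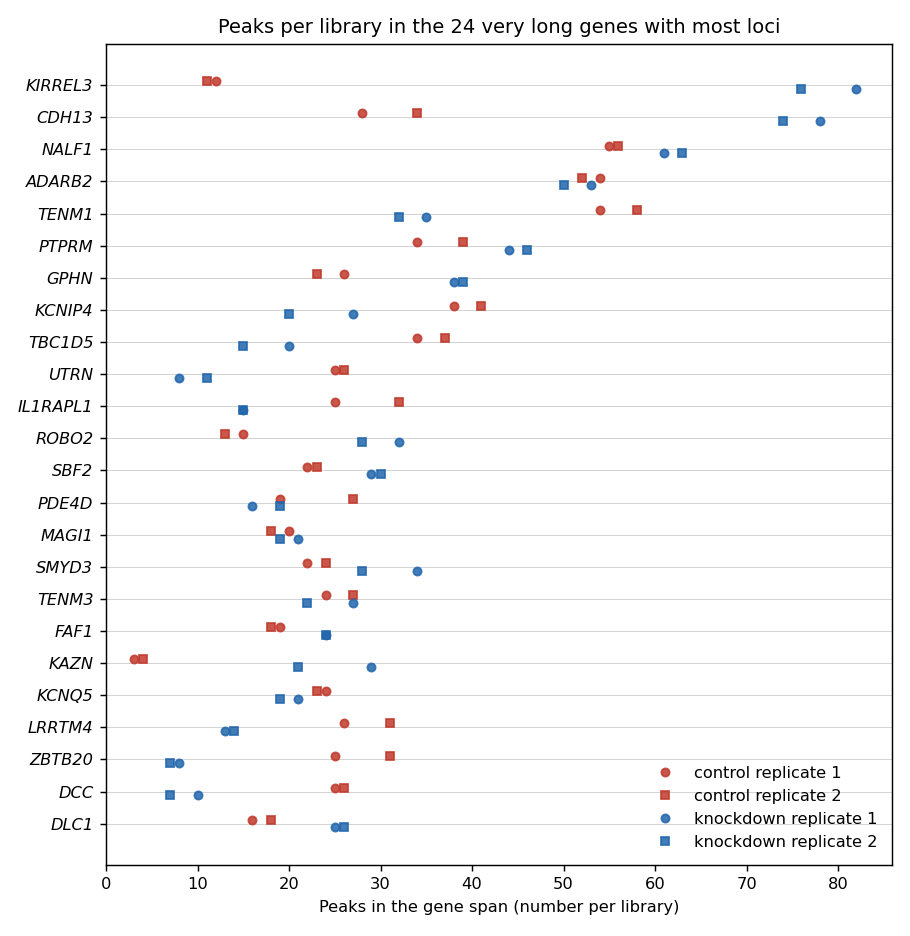
Peaks inside the gene span in each library (horizontal axis, number) for the 24 very long genes with most loci, ordered by loci, with circles and squares for replicates 1 and 2. KIRREL3, CDH13, ROBO2 and KAZN have all knockdown points to the right of all control points, ZBTB20, DCC, UTRN and TENM1 have them to the left, and the points of ADARB2 lie between 50 and 54.

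Along the genes, loci were most frequent at the ends. Dividing each span into 10 equal parts from 5′ to 3′, the 2637 loci on the gene's strand numbered 419, 322, 267, 253, 198, 190, 196, 200, 243 and 349. The counts thus fell from the 5′ end to the middle of the gene and were high again in the last part. Loci found in all 4 lists followed the same outline, with 144 in the first part, 42 in the fifth and 127 in the last. Within the first 500 bp of the span lay 36 loci (1.37%) and within the first 10 kb 117 (4.44%), while 124 (4.70%) lay within the last 10 kb. The median span of the very long genes was 724.79 kb, so these windows held many loci for their length.

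Single genes departed from that outline. The 22 loci on the strand of PTPRD, a receptor phosphatase of synapses, all lay beyond 1754.92 kb of a span of 2298.76 kb (chr9:8314246-10613002, minus strand). In CAST, which encodes the calpain inhibitor calpastatin, loci on the gene's strand began 714.11 kb into the span. In ADARB2, 43 loci on its strand lay in one window of 100 kb that began 0.32 kb from its 5′ end. ZBTB20, a zinc-finger repressor, had 12 loci on its strand in the first 2 of 10 parts, 0 in the next 4 and 20 in the last 4. Where transcription begins within a span was not measured.

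**Figure D2:**
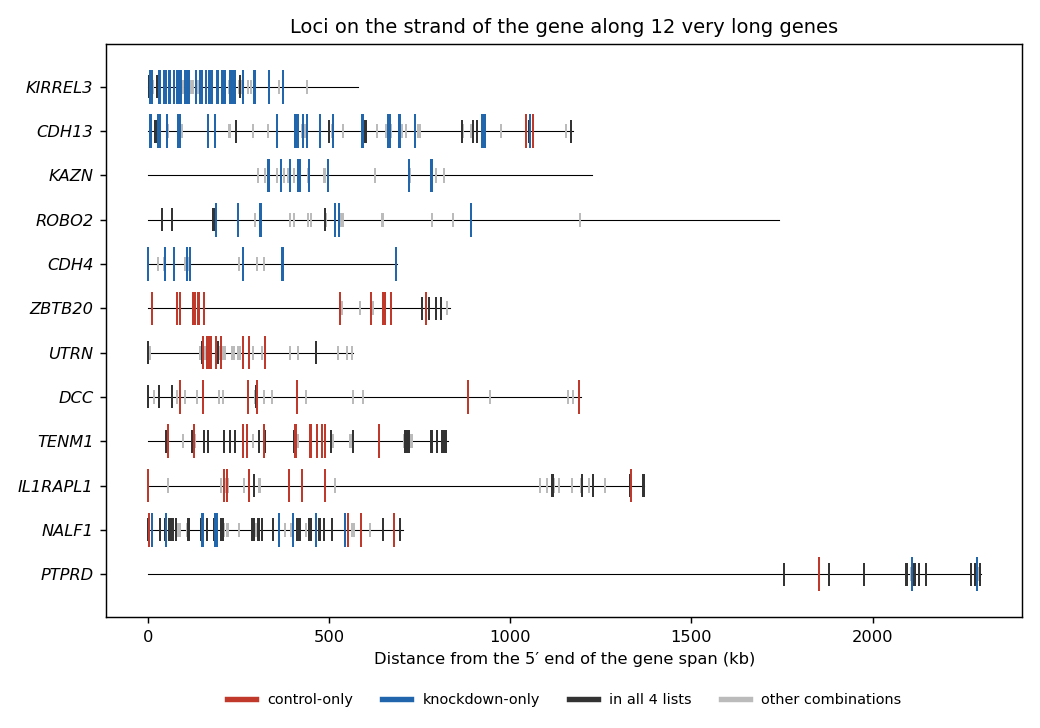
Loci on the gene's strand along 12 very long genes, drawn as ticks by distance from the 5′ end of the span (horizontal axis, kb) and coloured by the lists that hold them; the black line is the span. Knockdown-only loci recur in KIRREL3, CDH13, KAZN and CDH4, with stretches that hold none. Control-only loci recur in ZBTB20, UTRN, DCC and TENM1, and PTPRD has ticks in the last part of its span alone.

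The question of the knockdown comparison is which loci depend on METTL3, and in these genes loci were found in 1 group only more often than elsewhere, in both directions. Of 1353 loci in both control lists, 371 had no peak in either knockdown list (control-only, 27.4%, Wilson interval 25.1% to 29.9%), against 22.6% over all loci of the lists. Of 1300 loci in both knockdown lists, 387 had no peak in either control list (knockdown-only, 29.8%, 27.3% to 32.3%), against 18.9% over all loci. So control-only loci made up 48.9% of those that differed in very long genes, and 56.9% over all loci. The control lists were the longer ones. With lists of equal length the shares over all loci were 21.1% control-only and 20.9% knockdown-only. At a fold of at least 4 they were 24.96% and 27.6%. The lean toward control-only over all loci thus depended on the lists used. Loci of a gene move together and are not replicates, so the intervals cover counting error only and no test was made. The excess of knockdown-only loci rested in part on few genes: KIRREL3, CDH13 and GPHN held 101 of the 388 counted by gene, and without them the share was 24.98%, below the control-only share of 28.3%.

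The shares varied with the length of the gene. In genes shorter than 50 kb, 21.8% of control loci were control-only and 15.7% of knockdown loci knockdown-only. The shares were 21.7% and 25.3% in genes of 200 to 500 kb, 27.3% and 28.4% from 500 kb to 1 Mb, and 27.9% and 34.3% above 1 Mb. The knockdown-only share was thus the higher of the pair in each class above 200 kb and the lower in each class below it. All classes were taken from the full lists, of which the control lists were the longer. The intervals of the pair overlapped in both classes above 500 kb. Without KIRREL3, CDH13 and GPHN the shares were 27.5% control-only and 24.6% knockdown-only from 500 kb to 1 Mb. Above 1 Mb they were 31.5% and 26.6%. Those genes were picked for their knockdown-only loci, and genes with most control-only loci were not left out in turn. The turned order therefore decides nothing. Gene length goes together with intron content and with the number of loci per gene, and their parts were not tested.

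**Figure D3:**
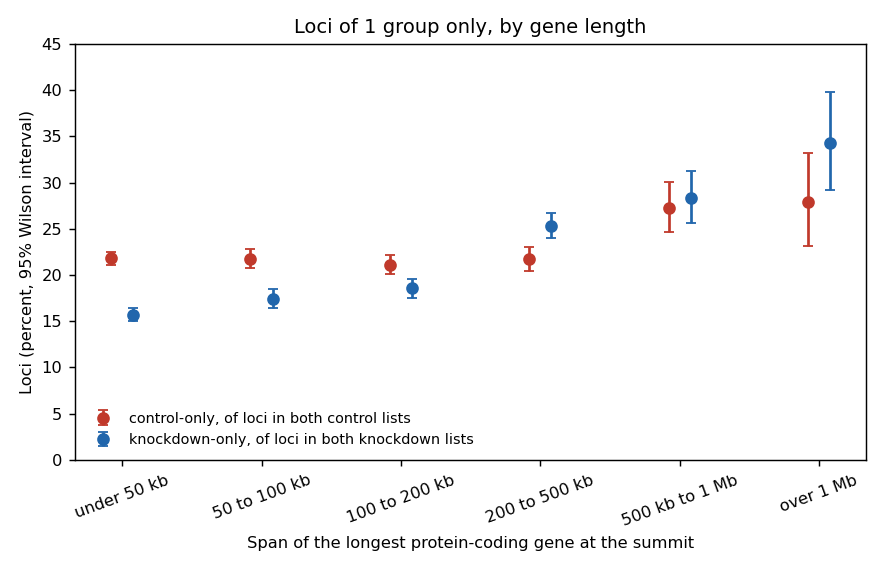
Share of loci in 1 group only (vertical axis, percent, with 95% Wilson intervals over loci) by the span of the longest protein-coding gene at the summit, control-only in red and knockdown-only in blue. The knockdown-only share is 15.7% in the shortest class and 34.3% in the longest, and the control-only share is 21.8% and 27.9%.

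Loci of 1 group were lower than shared ones, and they were not spread evenly along the gene. Their definition favours low peaks, which more readily miss the cutoff of the other lists. In control replicates 1 and 2, control-only loci had median folds of 3.66 and 3.65 and loci in all 4 lists 4.41 and 4.19. In the knockdown lists, knockdown-only loci had 3.66 and 3.72 and shared loci 4.42 and 4.43. Upstream of the midpoint of the span, 248 of 710 knockdown loci on the gene's strand were knockdown-only (34.9%), and downstream of it 120 of 518 (23.2%). Control-only loci showed no such lean between the 2 sides, with 26.3% upstream and 26.6% downstream. Their share was not flat, however. Of 10 equal parts, it was 20.3% in the first, 42.6% (33.0% to 52.6%) in the fifth and 18.75% (13.9% to 24.9%) in the last. Without KIRREL3, CDH13 and GPHN the knockdown-only shares were 28.4% and 20.7%. In the last 10 kb, 6 of 66 control loci were control-only (9.09%, 4.23% to 18.4%) and 16 of 75 knockdown loci knockdown-only (21.3%, 13.6% to 31.9%). The control-only share there was thus below that of either side of the midpoint. In the first 10 kb of the span it was 16.4% (11 of 67, 9.42% to 27.1%). In the first 2 kb it was 8.70% (4 of 46, 3.43% to 20.3%), so the share was low toward the 5′ end as well. On the strand opposite to the gene, 28 of 76 control loci were control-only (36.8%) and 16 of 58 knockdown loci knockdown-only (27.6%), with wide intervals that overlap.

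**Figure D4:**
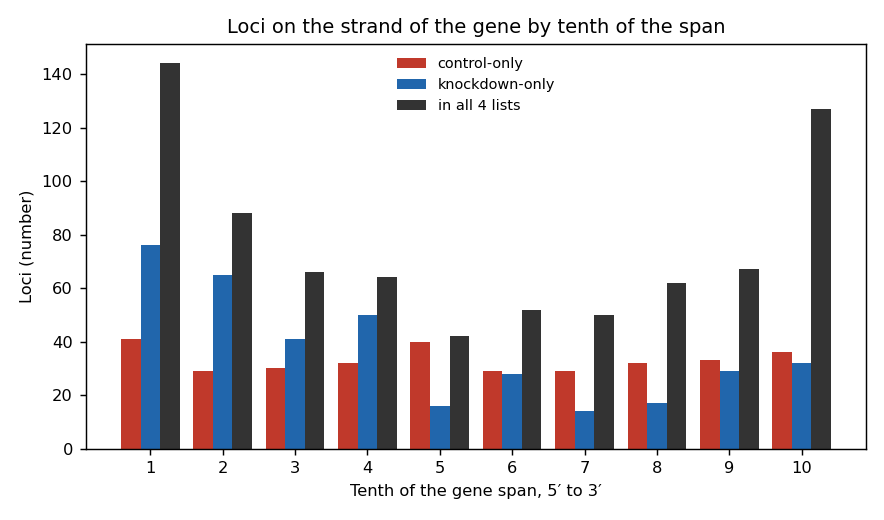
Number of loci on the gene's strand (vertical axis) in each of 10 equal parts of the span from 5′ to 3′, for control-only, knockdown-only and shared loci. Knockdown-only loci number 76, 65, 41 and 50 in the first 4 parts and at most 32 in each later part. Control-only loci number between 29 and 41 in each part, but the parts differ in their total of loci.

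Gene by gene, peak numbers changed in both directions, and a larger share of the very long genes was called than of all genes. The test was limma on log2 peak number, scaled to list length, over all 5032 genes with a mean of at least 3 peaks per library. Of the 127 very long genes tested, 31 had more peaks after knockdown and 26 fewer (adjusted p under 0.05), together 44.9%. Over all genes tested the calls were 10.5% higher and 11.3% lower, 21.8% in all. Genes with more peaks are easier to call, and very long genes had a median of 10.25 peaks against 5.25. Among genes with a mean of at least 10 peaks, 35 of 64 very long genes were called (54.7%; 21 higher and 14 lower) against 28.7% of 860 genes (13.8% higher and 14.9% lower). Those very long genes still had more peaks, with a median of 16.5 against 13.5, so peak number was not fully matched. In the full sets, the median log2 difference was 0.04 in very long genes and 0.01 over all genes. The median size of the difference was 0.47 and 0.34. In peak numbers not scaled to list length, both knockdown libraries were above both control libraries in 42 of the 127 and below them in 48. Over all 5032 genes tested the same held for 1011 (20.1%) and 1593 (31.7%). The control lists were longer, so unscaled numbers lean toward fewer peaks in knockdown. Of 12 other settings, each gene was checked in those that tested it, and the genes that kept their call in all of these numbered 17 (9 higher and 8 lower), and no call turned its direction. They were CDH4, NRXN3, LRRC4C, KIRREL3, KAZN, CDH13, PALM2AKAP2, DIAPH2 and CREB5 on the higher side and ZBTB20, RYR2, GALNT13, ADAMTSL1, TMEM117, SEMA3A, SOX5 and TENM1 on the lower. Without scaling to list length, 21 of the 57 calls were kept. Among genes described below, the calls lost that way were AGAP1, CACNA2D3, CAMTA1, DCC, DLC1, GABRG3, GPHN, IL1RAPL1, KCNIP4, KCNMA1, LPP, LRRTM4, MAGI2, NALF1, PRKCA, PTPRG, PTPRK, PTPRM, ROBO2, RORA, SMYD3, STPG2, TBC1D5 and UTRN. With only peaks of a fold of at least 4, those of CACNA2D3, DLC1, GABRG3, LPP, NALF1, PRKCA, PTPRG, PTPRM, SMYD3 and SYT1 were lost, and with summits in no other gene those of GABRG3, PTPRG and PTPRK.

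**Figure D5:**
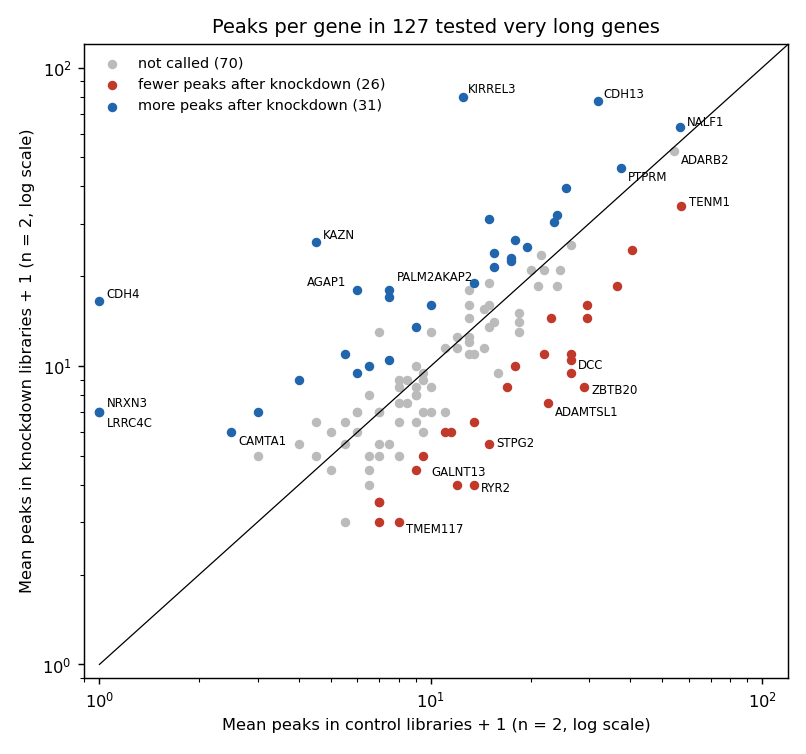
Mean peaks per gene plus 1 in the 2 control libraries (horizontal axis) and the 2 knockdown libraries (vertical axis), both on log scales, for the 127 very long genes tested; the line marks equal numbers. The 31 genes with more peaks after knockdown include CDH4 and KIRREL3 far above the line, and the 26 with fewer include ZBTB20 and RYR2 below it.

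For every gene list below, the background is 31 higher and 26 lower of the 127 very long genes tested, together 44.9%. Over all genes tested it is 10.5% higher and 11.3% lower. The lists were not tested against these shares. Cadherins are calcium-dependent adhesion proteins. Of 11 very long cadherin and catenin genes, 8 had a peak and 5 were tested, 2 of which rose and 0 fell (median log2 difference 0.04). CDH13, or T-cadherin, which is held at the membrane by a lipid anchor (chr16:82626969-83800640), had 28 and 34 peaks in control and 78 and 74 in knockdown. Its log2 difference was 1.37 ± 0.08 (SE; adjusted p = 0.00196), and all 90 of its loci lay on the plus strand. Knockdown-only loci of CDH13 numbered 34 and ran from 7.40 kb to 1053.51 kb of a span of 1173.67 kb, so the rise covered most of the gene. CDH4, or R-cadherin (chr20:61252261-61940617), had 0 peaks in both control libraries and 16 and 15 in knockdown (adjusted p = 0.00131). Its 21 loci ran from 0.12 kb to 685.66 kb of 688.36 kb, with none between 372.42 kb and 684.83 kb. CDH12, a cadherin of neurons, had 9 and 13 against 11 and 10 and was not called, and CTNND2, delta-catenin, had 0 and 0 against 2 and 1 and was too low to test.

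Other adhesion molecules of neurons and synapses moved in both directions. Of 25 such genes, 16 had a peak and 10 were tested, with 2 higher, 3 lower and a median log2 difference of 0.05. KIRREL3 (chr11:126423358-127003394) went from 12 and 11 peaks to 82 and 76, a log2 difference of 2.77 ± 0.09 (SE; adjusted p = 5.75e-04). Its 53 knockdown-only loci were the most of any very long gene, and 40 loci on its strand lay in 100 kb that began 24.7 kb from its 5′ end. Of its 93 loci, 40 were also inside another gene, 29 of them in the long noncoding RNA LOC105369559, where 18 were knockdown-only. The strand of LOC105369559 was not checked, so peaks there were not given to 1 of the 2 transcripts. NRXN3 had 0 and 0 peaks in control and 6 and 6 in knockdown (adjusted p = 0.00702), all from 1109.31 kb onward. LRRC4C, a ligand of netrin-G that was on none of the lists, likewise went from 0 and 0 to 7 and 5 (adjusted p = 0.0076).

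The genes of that group with fewer peaks after knockdown were TENM1, IL1RAPL1 and LRRTM4. TENM1 had 54 and 58 peaks in control and 35 and 32 in knockdown (log2 difference -0.63 ± 0.06, SE; adjusted p = 0.00619). Control-only loci of TENM1 numbered 14 and knockdown-only loci 0, and 28 were in all 4 lists. IL1RAPL1, an interleukin-1 receptor relative that organises synapses, had 25 and 32 against 15 and 15 (log2 difference -0.78). Of its 37 loci, 20 lay in the first 4 of 10 parts of the span, 0 in the next 3 and 17 in the last 3. LRRTM4, a leucine-rich postsynaptic protein, had 26 and 31 against 13 and 14 (log2 difference -0.93). Its peaks lay on both strands (plus strand 7, 8, 1 and 1; minus strand 19, 23, 12 and 13), so it was given no strand. TENM3, another teneurin, had 24, 27, 27 and 22 peaks in the 4 libraries and was not called.

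Axon guidance genes were called 3 times among 7 tested, of 12 in the list and 10 with a peak (median log2 difference -0.21). DCC had 25 and 26 peaks in control and 10 and 7 in knockdown (log2 difference -1.41 ± 0.16, SE; adjusted p = 0.00743), and its 8 control-only loci ran from 90.0 kb to 1190.46 kb. SEMA3A, a secreted repellent of axons, had 27 and 24 against 10 and 10 (log2 difference -1.18; adjusted p = 0.00591). ROBO2, a receptor for Slit proteins, went the other way, from 15 and 13 to 32 and 28 (log2 difference 1.14; adjusted p = 0.00702). Its paralogue ROBO1 had 15 and 15 against 6 and 11 and was not called. PLXNA4, a semaphorin receptor, had 5 and 5 against 0 and 0, all on the strand opposite to the gene, and was too low to test.

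Among receptor-type tyrosine phosphatases, 5 of 6 had a peak and 4 were tested, with 2 higher and 1 lower (median log2 difference 0.21). PTPRM, which binds itself across cell contacts, had 34 and 39 peaks in control and 44 and 46 in knockdown (log2 difference 0.39 ± 0.08, SE; adjusted p = 0.0215). Without control replicate 1 its adjusted p was 0.081. PTPRG had 8 and 8 against 14 and 11 (log2 difference 0.66), and without either control replicate its adjusted p was 0.0627 and 0.0887, and without knockdown replicate 1 it was 0.0696. PTPRK had 12 and 13 against 4 and 7 (log2 difference -1.01), with an adjusted p of 0.055 without control replicate 1 and 0.0891 without control replicate 2. PTPRD had 21, 21, 19 and 21 peaks, and 15 of its 24 loci were in all 4 lists.

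Cytoskeleton and polarity genes were called in both directions, with 4 higher and 3 lower of 16 tested (27 in the list, 20 with a peak; median log2 difference -0.21). UTRN, or utrophin, the relative of dystrophin, had 25 and 26 peaks in control and 8 and 11 in knockdown (log2 difference -1.26 ± 0.16, SE; adjusted p = 0.00942). Its 9 control-only loci lay between 152 kb and 325 kb of a span of 567.70 kb, while its start locus was in all 4 lists. KAZN, or kazrin, a protein of cell junctions in epithelia, had 3 and 4 against 29 and 21 (log2 difference 2.61; adjusted p = 0.00297). All 33 of its loci fell between 303 kb and 817 kb of a span of 1225.22 kb, and 18 of them were also in another gene. LPP, a LIM-domain protein of adhesion sites, had 7 and 6 against 18 and 14 (log2 difference 1.26), and DIAPH2, a formin, 2 and 2 against 6 and 6 (log2 difference 1.29). MAGI1, a scaffold of cell junctions, had 20 and 18 against 21 and 19 and was not called.

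Among genes at common fragile sites, 4 of the 13 tested were called higher and 0 lower (29 in the list, 22 with a peak; median log2 difference 0.32), where 31 of all 127 very long genes and 10.5% of all genes tested were higher. Those were LPP, MAGI2, PTPRG and RORA, and all 4 calls were lost with unscaled peak numbers. RORA, a nuclear receptor, had 4 and 5 peaks in control and 10 and 10 in knockdown (log2 difference 1.09; adjusted p = 0.0099), and 8 of its 12 loci were also in another gene. MAGI2 had 5 and 6 against 8 and 10, and its adjusted p was 0.101 without control replicate 1, 0.0638 without control replicate 2 and 0.102 without knockdown replicate 2. PDE4D, a cyclic AMP phosphodiesterase, had 19 and 27 against 16 and 19, and IMMP2L, a mitochondrial peptidase, 16 and 19 against 11 and 15; neither was called. The best-known fragile genes had hardly any peaks: FHIT had 0, 0, 1 and 1, all on the strand opposite to the gene, and WWOX 1, 0, 1 and 0.

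Transcription and chromatin regulators were called 3 up and 3 down among 11 tested (20 in the list, 16 with a peak; median log2 difference 0.26). ZBTB20 had 25 and 31 peaks in control and 8 and 7 in knockdown, the largest fall on the log2 scale among the 127 genes tested (log2 difference -1.68 ± 0.13, SE; adjusted p = 0.00358). Control-only loci numbered 17, from 12.7 kb to 766.89 kb of the span, and knockdown-only loci 0. On the gene's strand, the first locus of all 4 lists lay at 530.19 kb. GLIS3, a zinc-finger factor, had 22 and 22 against 14 and 13 (log2 difference -0.58), with an adjusted p of 0.06 without control replicate 1. SOX5, a factor of cartilage and pigment cell development, had 6 and 6 against 2 and 2 (log2 difference -1.15). SMYD3, a lysine methyltransferase, had 22 and 24 against 34 and 28 (log2 difference 0.50), and its adjusted p was 0.0622 and 0.0526 without control replicates 1 and 2. CAMTA1, a calmodulin-binding activator, had 2 and 1 against 6 and 4.

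In cyclic nucleotide and calcium signalling, 2 of 7 tested genes rose and 2 fell (12 in the list, 9 with a peak; median log2 difference 0.22). RYR2, the calcium release channel of heart muscle, had 12 and 13 peaks in control and 3 and 3 in knockdown (log2 difference -1.67 ± 0.14, SE; adjusted p = 0.00358). PRKCA, protein kinase C alpha, had 13 and 16 against 24 and 22 (log2 difference 0.73). PDE10A, another phosphodiesterase, had 19, 22, 23 and 22 peaks and was not called. Among growth factor, receptor and kinase genes 2 of 7 tested rose and 0 fell (20 in the list, 14 with a peak; median log2 difference 0.34). AGAP1, an activator of Arf GTPases, had 6 and 4 against 19 and 15 (log2 difference 1.68), and DLC1 16 and 18 against 25 and 26 (log2 difference 0.65).

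Ion channel and transmitter receptor genes were called 1 up and 3 down among 7 tested (25 in the list, 13 with a peak; median log2 difference -0.13). KCNIP4, a subunit that binds potassium channels, had 38 and 41 peaks in control and 27 and 20 in knockdown (log2 difference -0.65), with an adjusted p of 0.0669 without control replicate 2. KCNMA1, the large-conductance potassium channel, had 20 and 22 against 12 and 8 (log2 difference -0.93), with an adjusted p of 0.0576 without that library. GABRG3, a GABA receptor subunit, had 16 and 16 against 9 and 6. KCNQ5, a potassium channel, had 24 and 23 against 21 and 19 and was not called. CACNA2D3, an accessory calcium channel subunit, rose from 13 and 12 to 19 and 17, with an adjusted p of 0.0831 without control replicate 2.

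Genes of ubiquitin transfer, trafficking and metabolism gave 2 higher and 4 lower of 16 tested (37 in the list, 25 with a peak; median log2 difference -0.19). GPHN, or gephyrin, a synaptic scaffold that also makes the molybdenum cofactor, had 26 and 23 peaks in control and 38 and 39 in knockdown (log2 difference 0.73), and 23 of its 49 loci were also in another gene. TBC1D5, a regulator of endosomal recycling, had 34 and 37 against 20 and 15 (log2 difference -0.90; adjusted p = 0.0115), with 12 control-only loci against 1 knockdown-only. GALNT13, a mucin-type glycosyltransferase, had 11 and 11 against 3 and 3 (log2 difference -1.51), but 12 of its 15 loci lay on the strand opposite to the gene. SYT1, the calcium sensor of synaptic vesicles, had 8 and 9 against 4 and 4, and 11 of its 14 loci were also in another gene. No RNA-binding protein gene was called by limma among the 2 tested (8 in the list, 5 with a peak). ADARB2 had 54, 52, 53 and 50 peaks and RBMS3 12, 12, 21 and 13.

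Of the calls outside the lists, ADAMTSL1, an extracellular matrix glycoprotein, fell from 21 and 22 peaks to 7 and 6 (log2 difference -1.50; adjusted p = 0.00358). STPG2 had 14 and 14 against 6 and 3 (log2 difference -1.42) and TMEM117 7 and 7 against 2 and 2 (log2 difference -1.34). On the other side, PALM2AKAP2, a fused locus that encodes an anchor of protein kinase A, rose from 6 and 7 to 18 and 16 (log2 difference 1.35), and CREB5, a leucine-zipper transcription factor, from 3 and 3 to 8 and 8 (log2 difference 1.25). NALF1, with 55 and 56 against 61 and 63, was the smallest rise called (log2 difference 0.25; adjusted p = 0.0326). That call was lost without control replicate 1 (adjusted p = 0.0838), control replicate 2 (0.138) or knockdown replicate 2 (0.0503).

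Taking each gene whole, 156 of the 200 genes with a peak had one in all 4 lists. Peaks in both control libraries and in no knockdown library were found in 13 of the 200 genes (6.5%, against 4.75% of 10744 protein-coding genes with a peak), with LSAMP and PLXNA4 the highest at 5 and 5. The reverse held for 10 genes (5%, against 5.7%), among them CDH4, NRXN3 and LRRC4C, the cell polarity gene PARD3B (0, 0, 4 and 4) and FHIT. In LSAMP, PLXNA4 and CACNA1C the control peaks all lay on the opposite strand, as did the knockdown peaks of FHIT. All 6 loci of LSAMP were also inside the long noncoding RNA LOC124906269, and 3 loci of CACNA1C inside the protein-coding gene DCP1B. Of 94 genes with at least 3 loci in 1 group only, 27 had all of them in control (28.7%, against 36.9% of 1398 protein-coding genes), 18 had all of them in knockdown (19.1%, against 20.5%) and 49 had both kinds.

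Loci were ranked by the lowest percentile of their folds within the lists that hold them. Among control-only loci, the first was in LRRTM4 (chr2:76807816-76808167, minus strand), with folds of 10.9 and 9.67. ADGRV1, a giant adhesion receptor of hair cells and retina, had one with 9.10 and 8.08 (chr5:90657810-90658170), and ADAMTSL1 one with 7.28 and 7.11 (chr9:18714020-18714250). The first knockdown-only loci had 8.44 and 8.28 in RBMS3 (chr3:29448009-29448406), 8.17 and 8.69 in KIRREL3 (chr11:126854449-126855247) and 8.04 and 8.29 in ANXA8, an annexin (chr10:47969620-47970367). By the same rank, the first shared loci were in NLGN1, a postsynaptic adhesion protein (chr3:173604234-173605049; folds of 10.7, 9.26, 10.6 and 9.61 in control 1, control 2, knockdown 1 and knockdown 2), in SEMA3A (chr7:83960673-83961950; 11.8, 12.7, 9.45 and 14.6) and in KCNQ5 (chr6:72710224-72712561; 8.61, 8.46, 12.8 and 10.03). The SEMA3A locus lies near the 3′ end, 531.17 kb into a span of 536.95 kb, and 8 of the gene's 28 loci were in all 4 lists.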

How the data were processed

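The authors deposited 1 peak list per library and called peaks on each strand separately, as the deposited peak names show. Tools named without roles in the submitters' processing notes are MACS2 2.2.7.1, HISAT2 2.1.0, Bowtie2 2.4.2, Trim Galore 0.6.6 and SAMtools, with build hg38. The sources used here do not give how input or spike-in RNA was used for the calls. Fold enrichment is a ratio that the authors deposited for each peak, p-values and q-values were deposited as −log10 values (smallest −log10 q 2.00), and the deposited score was not used. Folds served to rank, describe or filter peaks. All 4 lists of A375 hairpin libraries were used, and the other samples of the series are not analysed here.

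Summits were placed in RefSeq gene spans (GRCh38.p14), loci merged at a minimum overlap of 1 bp, and a gene without a RefSeq strand took the strand of at least 80% of at least 3 loci that lay in it alone. This inference equalled RefSeq in 120 of 125 genes. Peaks per gene, scaled to list length, were tested as log2(peaks + 1) with limma 3.58.1 (R 4.3.3; trend and robust, Benjamini-Hochberg over 5032 genes, threshold 0.05), so that folds of genes with few peaks are understated. The deposited peaks are counts of features, not reads. On simulated peak numbers for this comparison with 3-fold changes, 104 of 185 changed genes were recovered (56.2%) with 6 false calls among 110, over 5017 genes. The simulated numbers were independent Poisson draws, and their spread was not matched to that between the deposited lists. The recovery and false calls therefore need not hold for the deposited lists. Exact permutation tests compared library values. Named genes were those with most loci, with the largest excess of either class, with most shared loci, called by limma (up to 15 each way), 2 examples per list, and the 3 highest loci of each class; others were named after their values were seen. The members, gene lists and tests were chosen with earlier results of these data known. Alternatives varied the fold, q value, span, overlap, scaling, filter and libraries.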

Additional observations from a re-analysis of the deposited data

How the results depend on the processing

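The number of peaks per library, 4.5 higher on average after knockdown, changed sign with only peaks of −log10 q of at least 20 (-75.5) and with summits in no other gene (-41.5), was 126.5 with lists of equal length, and ranged from -51 to 60 when 1 library was left out. The difference in share of the list, 0.266 percentage points, was -0.0020667 at a fold of at least 4, and 0.190 to 0.341 with 1 library left out. The control-only share of 27.4% became 31.3% at a fold of at least 4 (24.96% over all loci), 30.1% at −log10 q of at least 20 (23.3%), 24.1% in spans above 300 kb, 32.6% with 50% reciprocal overlap (28.2%) and 32.7% to 36.4% with 1 library left out. The knockdown-only share of 29.8% became 34.5% at a fold of at least 4 (27.6% over all loci), 34.3% in spans above 1000 kb, 34.0% with reciprocal overlap (24.4%), 24.98% without KIRREL3, CDH13 and GPHN, which was chosen after seeing the data, and 33.5% to 38.9% with 1 library left out. Loci in 1 list of a group count as found when the other list is left out, so these shares are not on the same footing. The counts of 31 higher and 26 lower genes became 15 and 17 at a fold of at least 4 (88 genes tested), 16 and 13 with unscaled peak numbers, 17 and 19 with a mean of at least 1 peak, and 23 to 31 and 21 to 35 with 1 library left out, a lone library being assumed to vary like the others. Libraries of the same replicate number did not deviate together (r = 0.03 over 5032 genes), and the fit with a replicate block gave 37 and 33. Over 12 alternatives to the main limma analysis, the 57 genes kept their call in 524 cases and turned direction in 0, and 40 genes lost it at least once. The causes of these changes were not tested.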
